A study of Mus musculus with 4 samples.

Results

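Very wide blocks of IgD signal were taken from chromatin immunoprecipitation sequencing (ChIP-seq) of mouse pro-B cells, as every peak of 20000 bp or wider in the 2 deposited peak lists. There were 611 such blocks among 52003 peaks: 293 of 11375 in pair 1 (2.58%, 95% Wilson interval 2.30 to 2.88) and 318 of 40628 in pair 2 (0.783%, 0.702 to 0.873). All 4 libraries came from wild-type bone marrow cells sorted as B220+IgM-CD43+, fixed with 1% formaldehyde and sonicated. In 2 libraries the antibody was anti-ms IgD, and in the other 2 it was ms IgG, which served as the control. Each list sets 1 IgD library against the IgG library of the same number, so "pair 1" and "pair 2" are 1 comparison each. The labels give no age or sex, no treatment, and no statement that the pairs came from separate mice. These files hold no expression values, so the cell type could not be checked against its markers. Read depth is not known from a peak list. Width chose the blocks, and the fold and q of a block come from the same contrast, so these are given below as descriptions without a test. The members were thus chosen by the width of the peak call.

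IgD is an antibody isotype that mature B cells carry beside IgM, and pro-B cells are an earlier stage that has not yet completed an antibody receptor. The series title places IgD in the nucleus of these cells and links it to E2F3, which drives transcription of S phase genes. Most sequence-specific factors give ChIP-seq peaks far narrower than the blocks described here. Mouse chromosomes also hold long stretches in which a gene and its surroundings have been copied many times in tandem. Receptors for odours and pheromones, urinary proteins, KRAB zinc finger proteins and germ cell genes of the X and Y chromosomes are known examples. Reads from such copies can match more than 1 place in the genome. How the authors' alignment treated such reads is not given in the sources used here, and its part in the blocks was not tested.

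The sequences below show how alike such copies can be. For 6 gene groups, the pair of promoters with the highest share of matching bases is printed, with full windows of 250 bases preferred. They are taken from genes whose start lies in sequence that blocks of both lists cover, with 3 to 11 genes compared per group. Being the closest pairs, they do not give a typical likeness. All sequences are from RefSeq on GRCm38.p6, 5′ to 3′ on the gene's own strand, and hold only bases upstream of the annotated gene. Capitals in the second of each pair mark bases that do not match the aligned base of the first.

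Vmn1r135 (chr7:21832101-21832350, plus strand) and Vmn1r155 (chr7:22657768-22658017, plus strand) encode pheromone receptors of the vomeronasal organ. Their starts lie 826 kb apart, and 246 of 250 bases match.
Vmn1r135: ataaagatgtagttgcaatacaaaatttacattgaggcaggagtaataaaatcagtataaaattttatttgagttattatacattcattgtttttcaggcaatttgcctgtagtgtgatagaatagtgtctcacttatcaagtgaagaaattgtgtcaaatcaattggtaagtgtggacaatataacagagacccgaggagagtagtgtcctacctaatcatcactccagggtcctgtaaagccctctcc
Vmn1r155: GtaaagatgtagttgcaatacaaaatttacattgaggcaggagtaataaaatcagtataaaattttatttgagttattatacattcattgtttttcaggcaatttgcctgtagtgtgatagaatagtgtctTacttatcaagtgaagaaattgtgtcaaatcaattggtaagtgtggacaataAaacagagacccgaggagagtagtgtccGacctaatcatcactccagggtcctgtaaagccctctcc

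Mup2 (chr4:60139978-60140106, minus strand) and Mup10 (chr4:60582277-60582405, minus strand) encode major urinary proteins, which carry pheromones in urine. Their starts lie 442 kb apart, and 125 of 129 bases match.
Mup2: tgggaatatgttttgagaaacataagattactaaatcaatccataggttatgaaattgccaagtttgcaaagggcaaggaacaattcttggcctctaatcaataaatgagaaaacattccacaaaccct
Mup10: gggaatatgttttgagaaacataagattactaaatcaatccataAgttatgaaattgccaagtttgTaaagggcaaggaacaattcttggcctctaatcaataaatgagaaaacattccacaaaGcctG

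Speer4e (chr5:14938476-14938725, minus strand), of a testis-expressed glutamate-rich family, and the provisionally named Gm21149 (chr5:15476537-15476786, minus strand) have starts 538 kb apart. Here 238 of 250 bases match, 8 differ and 4 have no aligned partner.
Speer4e: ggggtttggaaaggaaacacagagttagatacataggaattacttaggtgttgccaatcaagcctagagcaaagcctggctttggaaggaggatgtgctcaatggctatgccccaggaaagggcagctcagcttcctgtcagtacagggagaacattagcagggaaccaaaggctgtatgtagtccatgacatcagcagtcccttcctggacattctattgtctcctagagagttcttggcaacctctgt
Gm21149: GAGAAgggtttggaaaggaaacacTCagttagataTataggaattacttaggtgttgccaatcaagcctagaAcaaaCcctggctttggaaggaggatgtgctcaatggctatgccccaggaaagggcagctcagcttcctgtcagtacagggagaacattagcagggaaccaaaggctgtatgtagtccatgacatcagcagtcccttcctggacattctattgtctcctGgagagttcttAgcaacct

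Gm7980 (chr14:41907314-41907563, minus strand) and Gm8005 (chr14:42439697-42439946, minus strand) belong to a run of provisionally named genes on chromosome 14. Their starts lie 532 kb apart, and 244 of 250 bases match.
Gm7980: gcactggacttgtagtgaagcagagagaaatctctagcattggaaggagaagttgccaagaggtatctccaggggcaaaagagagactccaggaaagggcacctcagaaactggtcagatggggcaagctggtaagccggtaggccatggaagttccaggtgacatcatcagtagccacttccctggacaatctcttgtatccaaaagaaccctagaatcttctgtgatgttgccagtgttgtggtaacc
Gm8005: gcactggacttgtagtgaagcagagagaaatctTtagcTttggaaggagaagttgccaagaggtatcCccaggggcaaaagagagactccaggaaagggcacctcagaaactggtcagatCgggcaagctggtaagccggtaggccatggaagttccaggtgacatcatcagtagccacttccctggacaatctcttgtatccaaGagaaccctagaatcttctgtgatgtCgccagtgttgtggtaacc

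Btbd35f3 (chrX:4037424-4037673, plus strand) and Btbd35f13 (chrX:33656890-33657139, plus strand) are BTB domain genes of the X chromosome. They match at 247 of 250 bases although 29.6 Mb separates their starts.
Btbd35f3: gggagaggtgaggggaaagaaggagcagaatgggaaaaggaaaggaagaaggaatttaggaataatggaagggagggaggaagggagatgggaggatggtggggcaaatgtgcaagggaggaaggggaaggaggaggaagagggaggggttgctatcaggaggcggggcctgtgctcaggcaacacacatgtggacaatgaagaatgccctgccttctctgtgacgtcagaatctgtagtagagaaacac
Btbd35f13: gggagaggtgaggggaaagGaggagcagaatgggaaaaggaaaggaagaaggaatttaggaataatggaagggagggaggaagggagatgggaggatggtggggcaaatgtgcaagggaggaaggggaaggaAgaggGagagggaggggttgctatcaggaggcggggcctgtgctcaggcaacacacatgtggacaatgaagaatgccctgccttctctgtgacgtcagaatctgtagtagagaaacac

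Gm21285 (chrY:53342255-53342504, minus strand) and Gm20935 (chrY:68023292-68023541, plus strand) lie on opposite strands of the Y chromosome. With 248 of 250 bases in common over a distance of 14.7 Mb, they are the closest of the 6 pairs.
Gm21285: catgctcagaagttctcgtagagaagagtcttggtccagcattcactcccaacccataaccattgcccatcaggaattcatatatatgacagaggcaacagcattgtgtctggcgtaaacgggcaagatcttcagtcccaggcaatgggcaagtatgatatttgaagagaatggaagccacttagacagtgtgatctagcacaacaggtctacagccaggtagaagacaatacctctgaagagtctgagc
Gm20935: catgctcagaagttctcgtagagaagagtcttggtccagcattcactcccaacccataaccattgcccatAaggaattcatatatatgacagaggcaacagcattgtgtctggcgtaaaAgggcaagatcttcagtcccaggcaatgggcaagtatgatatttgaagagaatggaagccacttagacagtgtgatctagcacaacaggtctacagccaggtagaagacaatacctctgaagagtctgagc

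The blocks were few but took a large share of the sequence in each list. In pair 1 they covered 25.4 Mb, 57.4% of the 44.2 Mb under all peaks, and in pair 2 they covered 31.9 Mb, 42.2% of 75.5 Mb. Block widths ran from 20.008 kb to 737 kb in pair 1, with a median of 39.7 kb and quartiles of 26.8 and 88.9 kb. In pair 2 they ran from 20.046 kb to 1113 kb, with a median of 37.4 kb and quartiles of 25.1 and 98.4 kb. Both lists therefore held many blocks near the limit and a long tail of very wide ones: 93 and 121 were under 30 kb, while 68 and 79 were 100 kb or wider. Of the widest, 4 in pair 1 and 11 in pair 2 reached 500 kb. At the limit itself, the 3 widest peaks left out were 19846, 19891 and 19990 bp wide in pair 1 (folds 4.45, 4.26 and 4.53), and the 3 narrowest blocks were 20008, 20103 and 20153 bp (5.59, 5.86 and 5.59). The corresponding peaks of pair 2 were 19944, 19981 and 19998 bp (folds 3.24, 4.42 and 3.78) and 20046, 20049 and 20093 bp (7.03, 8.11 and 6.49).

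The fold enrichment at the summit is the authors' value for each peak, as their peak caller wrote it. Among blocks the fold ran from 1.86 to 23.2 in pair 1 (median 5.06, quartiles 3.99 and 6.12) and from 1.56 to 36.5 in pair 2 (median 6.03, quartiles 4.87 and 7.30). Peaks under 20000 bp had medians of 3.46 and 3.78. High folds were rare even among blocks, since 7 in pair 1 and 16 in pair 2 reached 10. The -log10 q had a median of 7.99 in pair 1 (range 1.42 to 91.3) and 10.9 in pair 2 (1.34 to 168). It was at least 5 in 207 of 293 and 267 of 318 blocks. Fold values repeated from block to block, with 94 distinct values in pair 1 and 116 in pair 2, the commonest being 5.59 in 23 blocks and 5.95 in 20. Of the block folds, 223 of 293 in pair 1 and 230 of 318 in pair 2 were whole multiples of a step. The step, the difference between the 2 commonest folds of each list, was 0.266 in pair 1 and 0.270 in pair 2. Many folds were thus coarse values, and small differences between them should be read with care. The summit lay in the outer 10% at either end of the block in 72 blocks of pair 1 and 74 of pair 2.

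**Figure D1:**
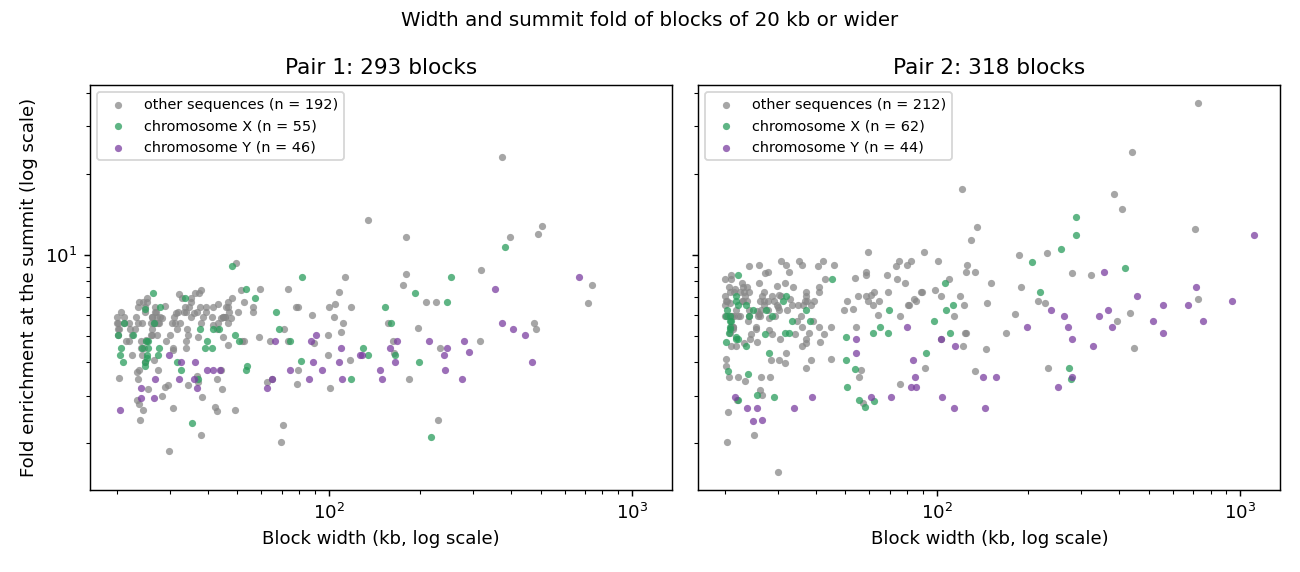
Width (kb, log scale) against the authors' fold enrichment at the summit (log scale) for each block, with pair 1 (293 blocks) on the left and pair 2 (318 blocks) on the right, coloured by chromosome Y, chromosome X or other sequences. Each point is 1 block; blocks of the Y chromosome are wide with low folds (medians 3.99 and 4.60), and the highest folds, 23.2 and 36.5, belong to blocks on other chromosomes.

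The Y chromosome stood out by how much of its signal was in blocks. Of its 98 peaks in pair 1, 46 were blocks (46.9%), and they held 7.05 of the 7.21 Mb under Y peaks (97.8%). In pair 2, 44 of 79 Y peaks were blocks (55.7%), with 11.6 of 11.7 Mb (99.0%). The Y chromosome thus gave 15.7% and 13.8% of all blocks, beside 0.862% and 0.194% of all peaks. Its blocks were wide, with a median of 102 kb in pair 1 and 151 kb in pair 2, and their median folds were 3.99 and 4.60. The X chromosome gave 55 blocks in pair 1 (18.8% of blocks, 13.0% of all peaks) and 62 in pair 2 (19.5%, 5.47% of all peaks), with median widths of 39.6 and 31.8 kb and median folds of 4.79 and 5.54. On all other sequences the median fold was 5.59 and 6.49 and the median width 37.0 and 35.2 kb. The autosomes with most blocks were chromosomes 7 (32 in pair 1, 23 in pair 2), 4 (28 and 23), 13 (21 and 22), 14 (19 and 41) and 5 (18 and 19).

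Blocks lay close to other blocks. In pair 1, 259 of 293 blocks had another block of the same list within 1 Mb, and in pair 2, 284 of 318 did. Joined over gaps of up to 5000 bp, the blocks formed 212 groups in pair 1 and 240 in pair 2, and joined over gaps of up to 1 Mb they formed 84 and 96. When blocks of both lists were joined together at gaps of up to 1 Mb, 120 clusters resulted. Blocks of both lists were present in 58 clusters, and these held 253 of the pair 1 blocks and 225 of the pair 2 blocks. Another 24 clusters held pair 1 blocks only and 38 held pair 2 blocks only. Neighbouring blocks are therefore not independent, and counts of blocks overstate the number of separate places.

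Each list was next compared with the other, which did not enter the choice of its blocks. Of the pair 2 blocks, 233 of 318 (73.3%, 68.1 to 77.8) overlapped a pair 1 peak of any width by 1 bp or more, and 259 of 293 pair 1 blocks (88.4%, 84.2 to 91.6) overlapped a pair 2 peak. Over all peaks the shares were 6.76% in pair 2 and 27.5% in pair 1, and over peaks under 20000 bp they were 6.24% and 25.9%. A wide interval is met by a peak more easily than a narrow one, so the share of the block that was covered was also computed. Pair 2 peaks covered a median of 83.5% of a pair 1 block, and 131 blocks (44.7%) were covered to 90% or more. In the other direction the median was 33.6%, and 91 pair 2 blocks (28.6%) reached 90%. Summed over blocks, pair 2 peaks covered 69.3% of the pair 1 block sequence, beside 51.6% of the sequence under all pair 1 peaks. Pair 1 peaks covered 56.9% of the pair 2 block sequence, beside 30.2% over all pair 2 peaks. Coverage was thus higher for the pair 1 blocks than for the pair 2 blocks, and within each list higher for block sequence than for peak sequence as a whole. The covering lists differed in size, with 40628 peaks over 75.5 Mb in pair 2 and 11375 over 44.2 Mb in pair 1. The order between the pairs was the same over all peaks (51.6% and 30.2%), so it is not particular to blocks.

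A block in one list was often broken into pieces in the other. The blocks of pair 1 were met by 631 peaks of pair 2 in 714 overlaps, with up to 16 peaks in 1 block and 5 or more in 46 blocks. The blocks of pair 2 were met by 921 peaks of pair 1 in 973 overlaps, with up to 43 peaks in 1 block and 5 or more in 61 blocks. By width, the share of pair 1 blocks met by a pair 2 peak was 87.1% at 20 to 30 kb, 92.0% at 30 to 50 kb, 84.1% at 50 to 100 kb and 88.2% at 100 kb or wider. The share with at least 50% of their length covered was 55.9%, 59.1%, 63.6% and 70.6% in the same classes, with overlapping intervals. In pair 2 it was 30.6% and 33.9% in the narrower classes and 59.3% and 59.5% in the wider ones. These values are drawn in the plot of overlap by block width.

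**Figure D2:**
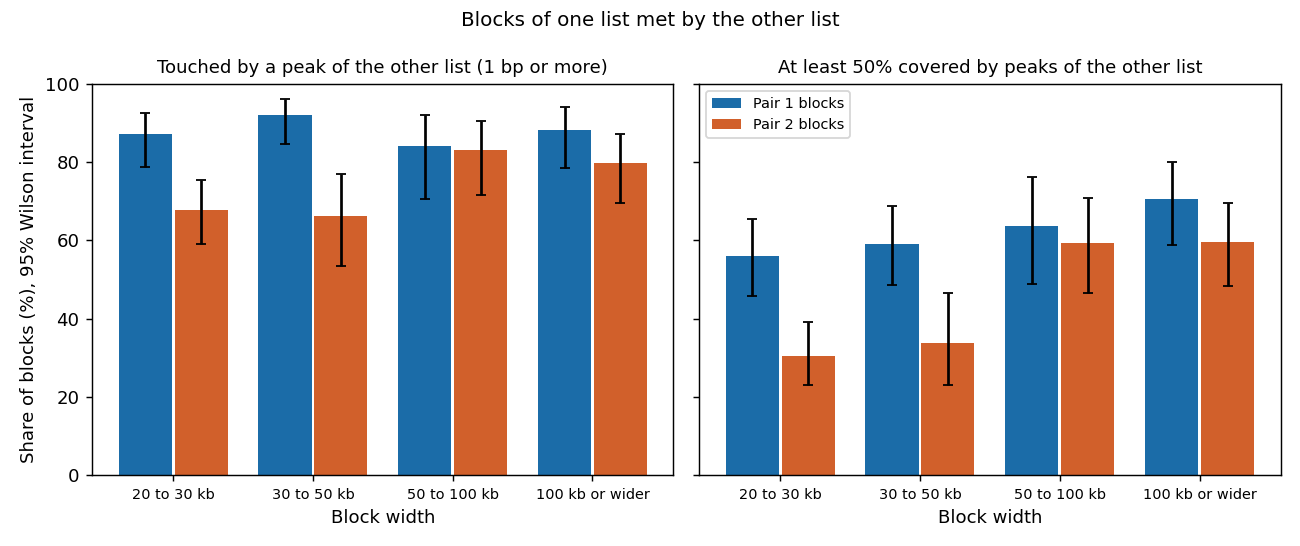
Share of blocks (%) in 4 width classes that were touched by a peak of the other list (left) or covered by such peaks over at least 50% of their length (right), with 95% Wilson intervals; blue bars are pair 1 blocks and orange bars pair 2 blocks. Touched shares stay between 66.1% and 92.0%, while the covered share of pair 2 blocks goes from 30.6% at 20 to 30 kb to 59.5% at 100 kb or wider.

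Overlap with a block of the other list, rather than with any peak, was found for 168 of 293 pair 1 blocks (57.3%, 51.6 to 62.9) and 136 of 318 pair 2 blocks (42.8%, 37.4 to 48.3). Among all peaks, 8.1% in pair 1 overlapped a pair 2 block and 1.55% in pair 2 overlapped a pair 1 block, and among peaks under 20000 bp 6.79% and 1.23% did. The overlapping blocks formed 95 regions, in which 15.8 Mb was covered by blocks of both lists. This shared sequence was 62.5% of the pair 1 block sequence and 49.7% of the pair 2 block sequence. The Y chromosome held 5.19 Mb of it (32.7%, 20 regions), chromosome 4 held 2.09 Mb (13.2%, 12 regions), the X chromosome 1.98 Mb (12.5%, 16 regions) and chromosome 5 held 1.57 Mb (9.89%, 6 regions). The 12 regions with most shared sequence had 7.27 Mb, or 45.9%.

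Block edges mostly differed between the lists. In 45 regions 1 block of pair 1 met 1 block of pair 2. Their starts differed by a median of 12881 bp and their ends by 13629 bp, and a median of 56.6% of the joint span was shared. In 10 of the 45 regions, 80% or more was shared, and in 8 at least 1 edge agreed within 1000 bp. Summits were a median of 31073 bp apart and lay within 1000 bp of each other in 3 regions. Across these 45 regions the widths had a Spearman correlation of 0.759, and the folds 0.437 (Pearson 0.336), given as a description since regions share libraries and lie in clusters. Fold was higher in pair 2 in 25 of the 45. In the remaining regions, 1 pair 2 block met several of pair 1 in 25, 1 pair 1 block met several of pair 2 in 7, and several met several in 18.

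**Figure D3:**
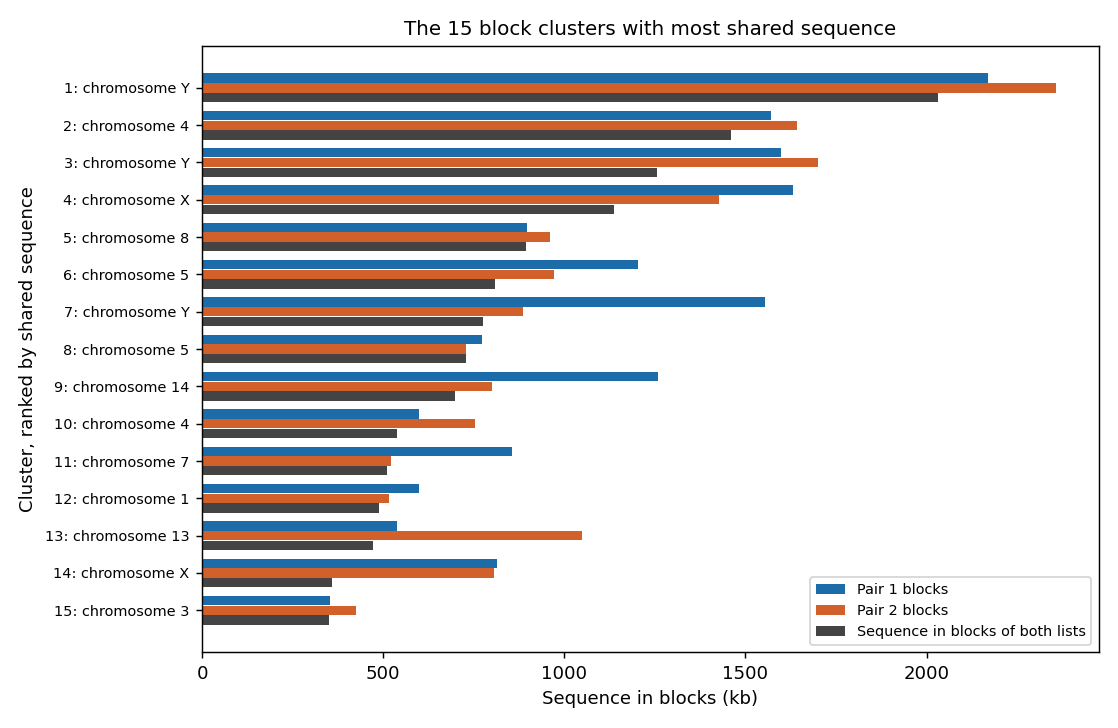
Sequence in blocks (kb) for the 15 clusters with most sequence shared by both lists, with blue bars for pair 1 blocks, orange bars for pair 2 blocks and dark bars for sequence in blocks of both. The cluster on the Y chromosome at the top has 2171 kb in pair 1, 2357 kb in pair 2 and 2032 kb in both, while the chromosome 13 cluster has 539 kb in pair 1 and 1048 kb in pair 2.

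Genes were taken from RefSeq's GRCm38.p6 table, whose coordinates match mm10. Protein-coding genes under shared sequence numbered 131, or 0.602% of 21774, and 91 of them lay wholly inside it. Pair 1 blocks lay over 211 coding genes (0.969%) and pair 2 blocks over 230 (1.06%). With every gene touched by 1 bp or more counted in full, shared sequence held 8.31 coding genes per Mb, beside 7.999 over whole chromosomes. Genes cut by an edge raise the first value, so the 2 densities are not like measures. The kinds of gene were as follows. Names of a provisional form (Gm numbers, Rik clones and the like) made up 73 of the 131 (55.7%, 47.2 to 63.9), beside 8.58% of all coding genes. A further 53 (40.5%) belonged to a multi-copy family listed by symbol, beside 15.8% of all coding genes. The lists were chosen with earlier results of these data known, so this share is a description and not independent support. Of the 307 genes of every class under shared sequence, 133 were pseudogenes (43.3%), beside 21.2% of the whole table. No coding gene lay under 165 of 293 blocks in pair 1 and 163 of 318 in pair 2. The same count was not made over all peaks, so it is not read as a trait of blocks. The genes lie in runs of neighbours and are not independent, so these shares have no test.

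The Y chromosome held 4 of the 12 regions with most shared sequence, all over provisionally named genes. The mouse Y long arm is known for multi-copy genes expressed in developing sperm. The region with most shared sequence was chrY:37235637-38260560 in pair 1 and chrY:37222964-38336166 in pair 2, with 1024 kb in common (92.0% of the joint span). Its highest fold was 8.25 in pair 1 and 11.9 in pair 2, and it held Gm20905 and Gm20738. Next came chrY:34603488-35515385, in which 7 pair 1 blocks met a single pair 2 block over 814 kb, with folds of 4.79 and 6.76 (Gm20853, Gm20855). Regions at chrY:67529114-68152017 (574 kb shared, folds 5.59 and 7.57, Gm20874, Gm21806 and Gm20935) and chrY:55440210-56179356 (564 kb shared, folds 5.33 and 6.49, Gm21330 and Gm21340) followed. All 4 of these Y regions had the higher fold in pair 2, as had Y blocks by their median (4.60 beside 3.99 in pair 1). Ssty2, a spermiogenesis gene of the spindlin type, was the only 1 of 4 coding genes in the Srsy, Ssty and Rbmy list under shared sequence, with folds of 3.99 and 3.51 in its region. That list was set by symbol and can miss copies with provisional names. Gm20747, also under shared sequence, had a promoter closest to that of Ssty2, at 99.6% identity.

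On the X chromosome, the Btbd35f family had most members under blocks. Btbd35f genes encode BTB domain proteins, and 12 of 29 lay under blocks of each list (16 under either), with 8 (27.6%) under shared sequence. They were led in symbol order by Btbd35f12, Btbd35f13, Btbd35f15, Btbd35f16, Btbd35f2 and Btbd35f3. The main region, chrX:32681224-33810032 in pair 1 and chrX:32878440-33663968 in pair 2, shared 627 kb in 6 and 5 blocks, with highest folds of 10.7 and 9.43. It held Btbd35f30, Btbd35f12, Gm2892, Btbd35f15 and Btbd35f13. Around it, the cluster spanning chrX:32217786-34217773 had 13 pair 1 and 9 pair 2 blocks with 1138 kb in common. Spin2-ps1, a spindlin-related gene that the table lists as coding, lay near the start of the X chromosome with Btbd35f3 and Btbd35f16, in a region (chrX:3826207-4136812 in pair 1) with highest folds of 4.79 and 7.30.

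On chromosome 5, Speer and Pramel genes lay under blocks. A single block in each list, chr5:14900599-15637884 in pair 1 and chr5:14907921-15637887 in pair 2, covered a Speer cluster; the ends differed by 3 bp and 99.0% of the span was shared. Folds were 7.70 and 6.85, so here pair 1 was the higher. The region held Gm9758, Speer4e, Gm10354, Gm17019, Gm21149, Gm21190, Gm21083 and Speer4d. Pramel genes encode leucine-rich repeat proteins of the PRAME type, known from germ cells and early embryos. Of 52 Pramel genes, 10 lay under pair 1 blocks, 8 under pair 2 blocks and 6 (11.5%) under shared sequence: Pramel36, Pramel38, Pramel41, Pramel45, Pramel46 and Pramel47. The last 3 lay with Gm3183, Gm16513 and Gm6468 in a region shared to 98.8% (chr5:94849616-95326234 in pair 1, chr5:94848617-95322051 in pair 2), with folds of 5.59 and 7.03.

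Zinc finger genes, which encode DNA-binding proteins, were the family with most members under shared sequence, 11 of 431 (2.55%). In symbol order these began with Rex2, Zfp978, Zfp980, Zfp981, Zfp987 and Zfp988. All but Zscan4b, a gene of the early embryo on chromosome 7, lay in 1 cluster on chromosome 4, chr4:145407986-147367266. That cluster had 15 blocks in pair 1 (1570 kb) and 11 in pair 2 (1643 kb), with 1461 kb in common. It held the highest fold of pair 1, 23.2, in the region chr4:145648649-146052156 over Zfp980; pair 2 had 14.8 there, and 99.0% of the joint span was shared. In the neighbouring region chr4:146461263-146892017, over Zfp992, Zfp981 and Zfp993, folds were 5.85 and 4.49 and 94.1% was shared. Pair 1 was thus higher than pair 2 in both of these regions. Another region of the cluster, chr4:146939045-147334291, over Zfp993, Rex2, Zfp978, Zfp991 and Zfp988, had folds of 11.7 and 16.8.

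Of the pheromone-related families, the vomeronasal type 1 receptors had unequal counts in the lists and the urinary proteins close ones. None of 122 coding vomeronasal type 2 receptor genes lay under a block of either list, beside 0.969% and 1.06% of all coding genes. Pseudogenes of this family were not in that count, and several lay under shared sequence. Among them were Vmn2r-ps15 and Vmn2r-ps16 on chromosome 4, Vmn2r-ps98 on chromosome 13 and Vmn2r-ps155 on the Y chromosome. Vomeronasal type 1 receptor genes lay under blocks in 26 of 228 cases in pair 1 and 9 in pair 2, and those 9 (3.95%) were all under shared sequence. In symbol order they began with Vmn1r132, Vmn1r135, Vmn1r152, Vmn1r155, Vmn1r247 and Vmn1r248. The other 17 lay under a block of pair 1 only; counting peaks of any width, the numbers were 34 in pair 1 and 17 in pair 2. Whether the lists differ here was not tested, as each is 1 comparison. The shared members lay in a chromosome 7 cluster (chr7:21498325-22708508) with 8 blocks and 856 kb in pair 1, 4 blocks and 523 kb in pair 2, and highest folds of 5.86 and 5.68. Among major urinary protein genes, 7 of 24 lay under pair 1 blocks, 8 under pair 2 blocks and 7 (29.2%) under shared sequence. They included Mup1, Mup10, Mup16, Mup17, Mup2 and Mup-ps12, the last listed as coding despite its name. Their cluster, chr4:60116360-61656111, had 8 and 9 blocks with 538 kb in common and highest folds of 8.52 and 10.0.

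Olfactory receptor genes, the largest family with 1109 coding members, were near or below the background share. Under pair 1 blocks there were 11, under pair 2 blocks 8 and under shared sequence 5 (0.451%, beside 0.602% of all coding genes). These were Olfr1156, Olfr1157, Olfr1158, Olfr1160 and Olfr74 in a single region, chr2:87950262-88093425, with 62.7 kb shared and folds of 7.46 and 9.46; only 4 bp of Olfr1156 was covered. Some immune genes lay under shared sequence and are named after their values were seen. They were Sirpb1a and Sirpb1b, of 4 genes in a family of activating myeloid receptors, and Ccl21b, a ligand of the receptor CCR7, of 36 chemokine genes. The Sirpb region, chr3:15382012-15575045, shared 168 kb with folds of 6.92 and 6.71. The Ccl21b region, chr4:42031758-42215668, shared 94.7 kb with folds of 3.46 and 3.78. No block of either list lay over any of 35 MHC class I genes, 27 Klr genes or 61 interferon and Ifi200 genes; at the 0.969% and 1.06% of all coding genes, lists of this length would hold few or none.

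**Figure D4:**
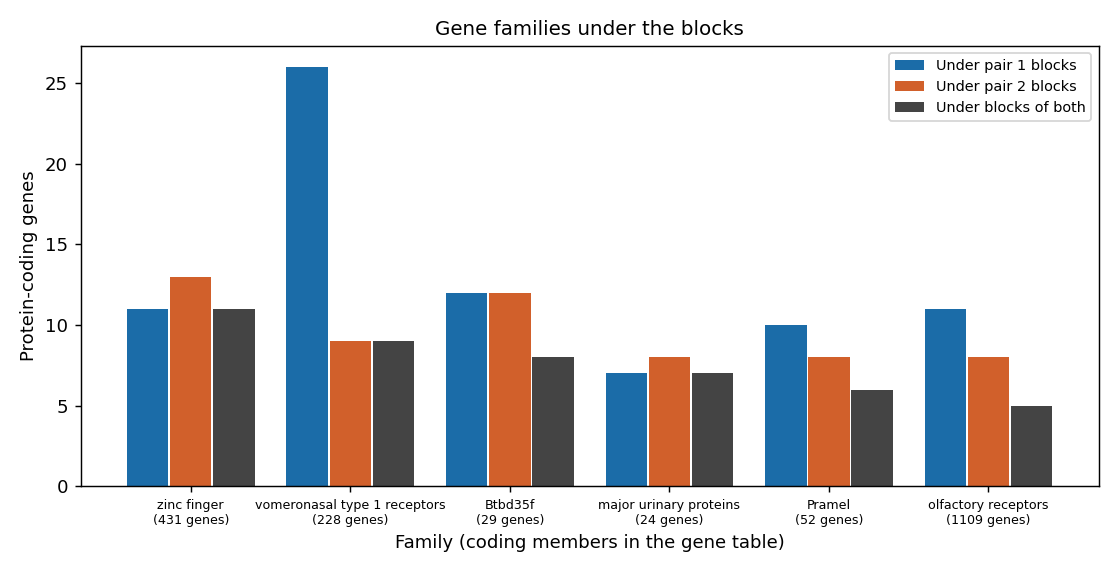
Number of protein-coding genes under pair 1 blocks (blue), pair 2 blocks (orange) and sequence in blocks of both (dark) for the 6 families with most genes under shared sequence, with each family's coding members in the table given below its name. Vomeronasal type 1 receptors have 26 genes in pair 1 and 9 in pair 2, while the other 5 families differ by at most 3 genes between the lists.

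Runs of provisionally named genes made up most of what was left. On chromosome 8, a region of 716 kb (chr8:19707833-20423957 in pair 1, chr8:19703656-20429017 in pair 2, 98.7% shared) lay over 4930467E23Rik, 9530057J20Rik and Gm15319. It had the highest fold of pair 2, 36.5, where pair 1 had 6.60. On chromosome 1, a region at chr1:84955947-85499845 in pair 1 and chr1:84978288-85419816 in pair 2 shared 440 kb over A530032D15Rik, Gm38510, Gm7609, C130026I21Rik and Gm7592, with folds of 12.8 and 24.1. The promoter of Gm7609 was closest to that of Sp100, a nuclear body gene, at 98.5% identity. On chromosome 14, the region at chr14:41976563-42569568 (2 blocks) in pair 1 and chr14:42016989-42523632 (6 blocks) in pair 2 shared 481 kb over Gm17026, Gm9611, Gm7995, Gm2959, Gm8005 and Gm8020, with folds of 11.98 and 9.46. Folds therefore differed most between the lists at the chromosome 8 region, while its starts and ends lay within 5060 bp of each other.

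Only 5 coding genes under shared sequence had neither a name of the provisional forms counted here nor a listed family. In 3 long genes the lists covered different amounts. Gulp1, an adaptor of cell engulfment (chr1:44551380-44796838), had 16.1% of its length under 1 pair 1 block (fold 6.39) and 54.9% under 4 pair 2 blocks (folds 6.76 to 10.3), with 16.1% in both. Itgbl1, an integrin beta-like protein with EGF-type repeats (chr14:123659937-123978865), had 13.8% under 1 block in pair 1 (fold 5.82) and 46.3% under 3 in pair 2 (7.57 to 9.46), with 13.5% in both. Luzp2, a leucine zipper protein gene (chr7:54835245-55268888), went the other way. It had 30.4% under 4 blocks in pair 1 (folds 3.17 to 6.66) and 25.2% under 2 in pair 2 (6.76 and 8.38), with 11.96% in both. The folds of pair 2 blocks were above those of pair 1 blocks in each of these genes, as was the median over all blocks (6.03 beside 5.06). D5Ertd579e (chr5:36600483-36696732) had 1 block in each list, over 30.9% and 31.2% of its length, with the lowest fold of each list, 1.86 and 1.56. Its name is also of a provisional type, which the forms counted did not include. Lamtor3-ps, whose name marks it as a pseudogene of a Ragulator subunit but which the table lists as coding, was wholly covered by 1 block in each list (folds 8.79 and 7.84). The promoters of 3 other genes matched its promoter at 90% identity or more, 1 of them within 1 Mb.

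Genes of pro-B cells and of the E2F pathway were under no block. None of 13 E2F factors and partners, 47 replication and E2F target genes, 26 early B-lineage transcription factors, 31 pro-B surface and signalling genes, 16 V(D)J recombination genes or 12 immunoglobulin constant region genes overlapped a block of either list. As blocks lay over 0.969% and 1.06% of all coding genes, a count of 0 is close to the background for lists of 47 genes or fewer. The 643 immunoglobulin and T cell receptor segments in the table, which are short and lie side by side in a few loci, were under no block either. That is below the 0.969% and 1.06% of all coding genes, but neighbouring segments are not independent. Of 1228 miRNA genes, 1 lay under blocks, Mir297-1 (76 bp), and it did so in both lists (0.0814%, beside the same shares of coding genes). Segments and miRNA genes are short, while longer coding genes are touched by 1 bp more easily, so these shares are not like measures. Sequence in blocks of both lists was 0.579% of chromosome length.

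Copies of promoters were then counted, a measure that uses no peak values. A promoter, 250 bases before to 50 after a gene start, was called copied when 80% or more of it aligned at 90% identity or more to the promoter of another gene within 1 Mb. Of 89 coding genes whose start lay in shared sequence and which had a promoter in the RefSeq table, 76 (85.4%, 76.6 to 91.3) had such a copy, beside 7.9% of 17492 coding genes. In pair 1 blocks the count was 131 of 154 (85.1%) and in pair 2 blocks 124 of 159 (78.0%). Starts under peaks narrower than 20000 bp had a copy in 19 of 116 cases in pair 1 (16.4%, 10.7 to 24.2) and 45 of 498 in pair 2 (9.04%). In both lists the interval for blocks lay above that for narrower peaks without overlap, but gene copies next to each other are not independent and no test was made. The median gene under shared sequence had 3 copies within 1 Mb, 12 genes had 10 or more, and Vmn1r135 had the most, 22. Genes without a copy within 1 Mb included Olfr1156, Olfr1157, Olfr1158 and Olfr1160, and 3 Y genes (Gm20855, Gm20738 and Gm21330) whose copies lay farther away. Promoters under shared sequence also had a lower GC content, with a median of 46.0% beside 56.3% of all coding promoters. Their median number of CG dinucleotides was 2, beside 13. For coding starts under peaks narrower than 20000 bp, these medians were 48.7% and 5.5 in pair 1, and 57.3% and 15 in pair 2. In pair 1, values below those of all coding promoters were thus not limited to blocks. The part of these sequence features in the block signal was not tested.

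**Figure D5:**
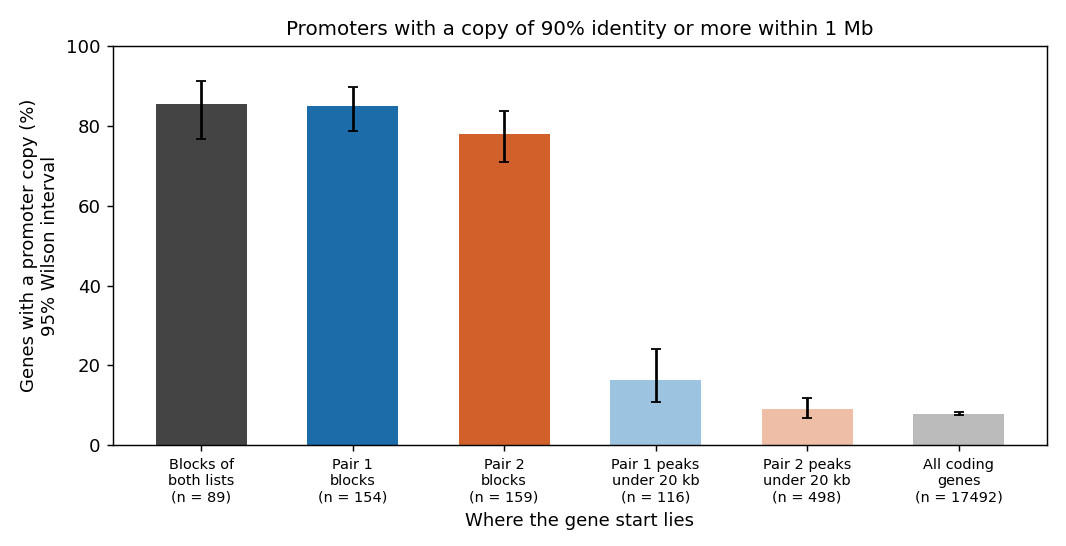
Share of coding genes (%) whose promoter has a copy of 90% identity or more at another gene within 1 Mb, by where the gene start lies, with 95% Wilson intervals and the number of genes in each group. The 3 groups under blocks lie between 78.0% and 85.4%, and starts under narrower peaks lie at 16.4% in pair 1 and 9.04% in pair 2, beside 7.9% of all coding genes.

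Some blocks had no counterpart. A peak of the other list was met by 88.4% of blocks in pair 1 and 73.3% in pair 2, beside 27.5% and 6.76% of all peaks. In pair 1, 34 blocks met no pair 2 peak, and their median width was 42.8 kb. Of these 34, 22 held no coding gene and 7 were on the Y chromosome, beside 165 and 46 of all 293 blocks. In pair 2, 85 blocks met no pair 1 peak, with a median width of 31.7 kb. Of these 85, 49 held no coding gene and 14 were on the Y chromosome, beside 163 and 44 of all 318 blocks. The widest in pair 1 was chr7:20107737-20424547 (317 kb, fold 4.79), which lay over 9 vomeronasal receptor genes: Vmn1r240, Vmn1r93, Vmn1r94, Vmn1r95, Vmn1r241, Vmn1r242, Vmn1r243, Vmn1r244 and Vmn1r100. It was followed by 2 blocks on the Y chromosome (242 kb over Gm21672 and Gm21118, and 148 kb over Gm20843) and 2 on the X chromosome (161 kb over Gm10488, and 135 kb without a coding gene). In pair 2 the widest was chrX:55458868-55747072 (288 kb, fold 11.9, Gm16404). The next 4 were all on the Y chromosome, at 279 kb (Gm21065), 272 kb (Gm21242), 263 kb (Gm21127 and Gm20816) and 252 kb (no coding gene). The genes under these 10 blocks were vomeronasal receptors or had provisional names; other, narrower unmatched blocks are not listed. By chromosome, pair 1 blocks met a pair 2 peak in 39 of 46 cases on the Y, 47 of 55 on the X and 173 of 192 elsewhere, and pair 2 blocks met a pair 1 peak in 30 of 44, 37 of 62 and 166 of 212.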

How the data were processed

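ChIP-seq was measured in 4 libraries, grouped by the antibody in the labels, with replicate numbers from the titles. Per the submitters' processing notes, HISAT2, MACS2 and ChIPseeker were used with build mm10; versions, settings and the handling of duplicate and multi-mapping reads: not given in the sources used here. Each list was called on 1 IgD library and its IgG library, not on pooled samples. The deposited lists give the fold enrichment (a ratio) at each summit and the -log10 p and -log10 q, as the authors' peak caller wrote them. Computed here were widths, overlaps of at least 1 bp, shared sequence, clusters at gaps of up to 1 Mb, and 95% Wilson intervals, which cover counting error only. Intervals do not measure a spread between animals.

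Genes came from RefSeq's GRCm38.p6 table, in which 402 of 49997 genes with positions outside the assembled chromosomes were left out. Families and gene lists were set by symbol. Members and lists were chosen with earlier results of these data known. Named genes were those under the 12 regions with most shared sequence, up to 6 by symbol order of the 6 leading families, listed pro-B and E2F genes under a block, genes of neither kind, and those under the 5 widest unmatched blocks of each list. Promoters were compared with BLAST+ 2.17.0 (megablast; copies within 1000 bp left out) and Biopython 1.88. A comparison of proteins planned at first was replaced by that of promoters, as protein sequences were not used here. For printed pairs, bases inside the gene's annotated span were left out. On simulated data, 20 of 20 sets of overlaps were recovered, as were 100 of 100 promoter copies with 4% of bases changed and 0 of 100 with 25% changed. The scripts ran under Python 3.11.15 (pandas 2.3.3, numpy 2.4.6, scipy 1.17.1; plots in matplotlib 3.10.9). Alternatives were limits of 10000 and 50000 bp, a -log10 q of at least 5, stricter overlap, whole genes, each list alone, other identities and leaving out the Y chromosome.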

Additional observations from a re-analysis of the deposited data

How the results depend on the processing

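The width limit set the counts: at 10000 bp there were 614 blocks in pair 1 and 684 in pair 2, and at 50000 bp 112 and 138. The share of blocks met by any peak of the other list was 81.9% in pair 1 and 66.2% in pair 2 at 10000 bp, and 81.2% in pair 2 at 50000 bp. With at least 50% of the block covered it was 61.4% and 43.7%. With a -log10 q of at least 5 in the other list it was 76.1% and 48.4%. The share met by a block of the other list was 48.4% and 35.8% at 10000 bp, and 72.3% in pair 1 at 50000 bp. When blocks of both lists had to reach a -log10 q of 5, it was 48.3% and 35.2%. At a reciprocal overlap of 50% it was 18.8% and 17.3%, so few blocks were shared over most of both lengths. Coding genes under shared sequence numbered between 211 and 230 when 1 replicate was left out, since the blocks of the other list alone then count; under the other settings they numbered between 91 and 190. In all, 34 of 54 recomputed values moved by less than their interval or, for counts, by less than 1.5 times. The shares of provisional names, of listed families and of copied promoters did so under every setting run, and so did the counts and shares without the Y chromosome. The promoter comparison and the setting without the Y chromosome were chosen after seeing the data. No paired analysis was possible because the results come from no test and each list already sets an IgD library against the IgG library of its number. With no read depth, fragment counts or expression values, a missing block cannot be told apart from one that was not detectable at this depth.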

Other observations

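In 3 of the 45 regions with 1 block in each list, an edge agreed within 100 bp; these regions were picked after their values were seen. Besides the Speer region described above, whose ends were 3 bp apart, they were 1 on chromosome 8 and 1 on chromosome 5. On chromosome 8 (chr8:55118411-55347466 in pair 1, chr8:55116931-55347486 in pair 2), 99.3% of the joint span was shared, the ends lay 20 bp apart and the only coding gene was Gm51572. Its fold was 2.44 in pair 1 and 10.1 in pair 2, so the edges were alike while the folds were not. The region in D5Ertd579e on chromosome 5 (chr5:36631122-36660875 in pair 1, chr5:36631120-36661113 in pair 2) had starts 2 bp and ends 238 bp apart, the only region with both edges within 1000 bp, and the lowest fold of each list.

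No gene of any class lay under 103 blocks of pair 1 and 106 of pair 2, nor under 27 of the 95 shared regions. All peaks were not counted in this way, so no background share is given. Among shared regions without a coding gene, 1 on chromosome 3 (chr3:15582072-15766928 in pair 1) had 183 kb in common beside the Sirpb genes, with folds of 6.12 and 7.30. Another on chromosome 10 (chr10:15461715-15682458 in pair 1) had 116 kb in common, with folds of 7.72 and 7.30. On chromosome 13, the pair 2 block sequence of the cluster at chr13:65470332-66763692 was 1048 kb and that of pair 1 was 539 kb, with 13 blocks in pair 1 and 8 in pair 2.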
